A study of Homo sapiens with 6 samples.

Results

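The cell cycle and DNA replication genes described here are 43 genes chosen by name, 21 that act in mitosis, 16 that act in DNA replication, 2 used as marks of proliferating cells and 4 regulators. They were found by their symbols in a table of FPKM values (fragment counts corrected for transcript length and for library size), and all 43 were among the 23145 genes kept and the 12841 genes tested, which are those with a mean of at least 1 FPKM. Ranked by mean FPKM among the tested genes, the median gene of the set stood at percentile 76.3 and the lowest at percentile 32.5.

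A dividing cell first licenses its replication origins by loading the MCM helicase onto DNA, through ORC1, CDC6 and CDT1. It then copies its DNA in S phase with the help of the sliding clamp PCNA, the flap nuclease FEN1 and the enzymes that make deoxynucleotides, and later condenses and separates its chromosomes under the cyclin B kinase CDK1, the Aurora and Polo kinases, the kinetochore and the spindle. The E2F factors drive many genes of the S phase set, while B-MYB (MYBL2) and FOXM1 drive many of the mitotic set, so that the transcripts of both sets are most abundant in cycling cells, at different points of the cycle.

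The study asked which mRNAs go with COL11A1, which encodes a chain of type XI collagen, a fibrillar collagen of the extracellular matrix, in human ovarian cancer cell lines. RNA was sequenced from 6 cultures, 4 of the line A2780 and 2 of the line OVCAR3, with 1 library each. The COL11A1-low group held A2780 transfected with a scrambled shRNA, A2780 transfected with an shRNA against COL11A1 (A2780-shCOL11A1) and OVCAR3 transfected with GFP (OVCAR3-GFP). The COL11A1-high group held A2780CIS, a cisplatin-resistant line raised by long exposure to the drug and labelled as having high endogenous COL11A1, together with A2780 and OVCAR3 transfected with COL11A1 (A2780-COL11A1 and OVCAR3-COL11A1). No culture was sequenced again, and the libraries that make up a group carry different constructs or, for A2780CIS, are of a resistant line. Every p-value below therefore measures the spread between such unlike cultures, not between repeats of 1 culture. In A2780 both low cultures carry an shRNA and neither high culture is labelled with one, so the type of construct and COL11A1 cannot be told apart there.

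In the low cultures COL11A1 itself stood at 4.23 FPKM (A2780 with scrambled shRNA), 0.670 FPKM (A2780-shCOL11A1) and 0.0258 FPKM (OVCAR3-GFP). In the high cultures it stood at 297 FPKM (A2780CIS), 8.17 FPKM (A2780-COL11A1) and 1.67 FPKM (OVCAR3-COL11A1). Each high culture lay above the control of its own line, but across lines the scrambled control lay above OVCAR3-COL11A1. Relative depth, estimated from the steps between low values with the scrambled library at 1, ran from 0.501 in OVCAR3-COL11A1 to 1.58 in A2780-COL11A1, with the other 3 libraries at 0.747 to 1.14. Of 8 ovarian epithelial markers, 8 reached 1 FPKM in OVCAR3 and 3 did so in A2780, where PAX8, WT1, MUC16 and MSLN were near 0. Of 8 fibroblast markers 7 reached 1 FPKM in A2780, mainly COL3A1 and PDGFRA, and 2 in OVCAR3, and of 8 immune and endothelial markers 1 did so in each line.

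The promoters of the set were searched for sequence elements that cell cycle promoters are known for. In the RefSeq promoter table (GRCh38.p14), 37 of the 43 genes were found, and the 250 bases before the start of each were read on both strands. CCAAT, the box bound by NF-Y, was present in 28 of these 37 promoters (75.7%), against 34.5% of all 15843 protein-coding promoters and 33.0% of all 27305 promoters in the table. TTTGAA or TTCGAA, the core of the cell cycle homology region found in mitotic promoters, was present in 9 of 18 promoters of mitotic genes (50%) and in 2 of 14 promoters of replication genes (14.3%), against 11.9% of protein-coding promoters. The E2F element, searched in the form TTCCCGC and in the variants spelled TTCGCGC and also TTGCCGC and lastly TTGGCGC, was present in 4 of the 18 mitotic promoters (22.2%) and 9 of the 14 replication promoters (64.3%), against 14.5% of protein-coding promoters. In 2 of the 37 promoters, matches of different elements overlapped. A match describes letters only and no binding was measured.

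A few of these promoters are shown for genes that the values below turn on: CDK1, which was the only member called in A2780CIS; CDT1, which had the smallest adjusted p between the lines; and MCM3 and RRM2, which were low in OVCAR3-COL11A1. Each is the 250 bases before the start of the gene, 5′ to 3′ on the strand of the gene, in GRCh38.p14, with the elements in capitals (ATTGG is CCAAT on the other strand, and GCGGGAA is TTCCCGC on the other strand). They lie at chr10:60778081-60778330 on the plus strand (CDK1), chr16:88803539-88803788 on the plus strand (CDT1), chr6:52284743-52284992 on the minus strand (MCM3) and chr2:10122489-10122738 on the plus strand (RRM2).
CDK1: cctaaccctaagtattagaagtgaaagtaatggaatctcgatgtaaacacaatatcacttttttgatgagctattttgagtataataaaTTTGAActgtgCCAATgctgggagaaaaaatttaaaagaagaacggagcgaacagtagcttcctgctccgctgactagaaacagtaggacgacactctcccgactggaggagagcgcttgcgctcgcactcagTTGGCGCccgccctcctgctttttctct
CDT1: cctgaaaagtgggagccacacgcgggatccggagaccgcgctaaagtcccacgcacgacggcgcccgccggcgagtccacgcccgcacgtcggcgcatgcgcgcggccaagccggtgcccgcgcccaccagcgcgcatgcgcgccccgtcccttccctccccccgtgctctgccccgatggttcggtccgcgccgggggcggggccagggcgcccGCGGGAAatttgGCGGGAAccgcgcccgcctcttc
MCM3: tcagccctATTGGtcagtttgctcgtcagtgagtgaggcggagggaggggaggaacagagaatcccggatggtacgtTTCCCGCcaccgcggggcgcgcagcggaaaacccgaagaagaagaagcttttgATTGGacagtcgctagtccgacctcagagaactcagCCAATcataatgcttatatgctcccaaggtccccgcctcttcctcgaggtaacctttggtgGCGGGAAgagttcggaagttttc
RRM2: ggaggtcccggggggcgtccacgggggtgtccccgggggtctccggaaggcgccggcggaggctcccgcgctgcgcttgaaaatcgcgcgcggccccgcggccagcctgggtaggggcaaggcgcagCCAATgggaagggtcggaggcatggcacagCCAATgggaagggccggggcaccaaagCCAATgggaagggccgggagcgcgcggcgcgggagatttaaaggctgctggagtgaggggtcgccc
The CDK1 promoter held 1 match of each element. The first base of TTTGAA lay at position -161 from the start, that of CCAAT at -150 and that of the E2F form at -28. The CDT1 promoter held no CCAAT and 2 E2F forms at -35 and -23. MCM3 held 3 CCAAT boxes and 2 E2F forms, and RRM2 held 3 CCAAT boxes, at -123, -93 and -66, and neither of the other elements.

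**Figure D1:**
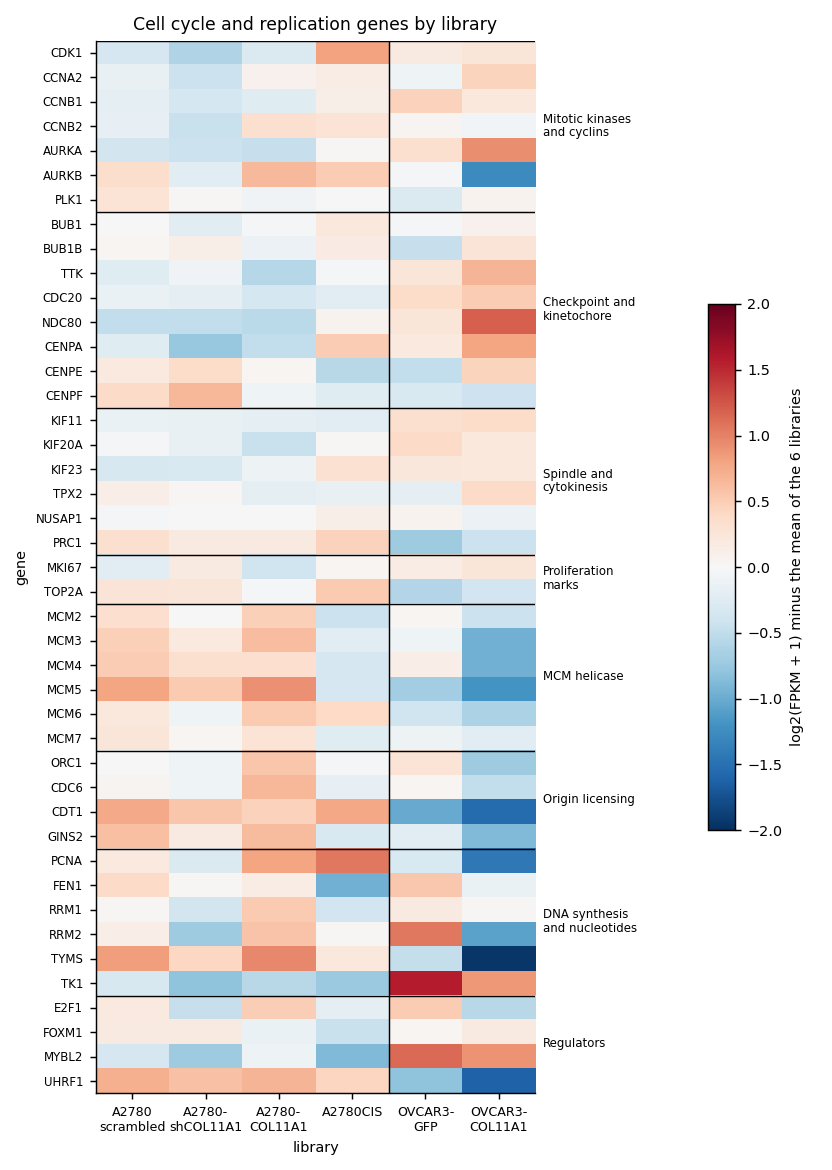
Level of each of the 43 genes (rows, by role) in the 6 libraries (columns), as log2(FPKM + 1) minus that gene's mean over the 6 libraries; red is above and blue below the mean, and the vertical line separates A2780 from OVCAR3. OVCAR3-COL11A1 was the lowest library for 12 of the 16 replication genes, and the highest for 10 of the 21 mitotic genes.

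All 43 genes were expressed in every library, at levels from 3.74 FPKM (CENPE in A2780CIS) to 180 FPKM (PCNA in A2780CIS). The replication clamp PCNA (chr20:5095598-5107268 in GRCh37, as are all gene positions here) had the highest mean, 99.7 FPKM, and MCM7 the next, 85.9 FPKM. The lowest means were those of CENPE, the kinetochore motor (chr4:104026962-104119566), at 6.20 FPKM and of ORC1, a subunit of the origin recognition complex (chr1:52838500-52870143), at 8.04 FPKM. The widest range over libraries was that of TYMS, 8.19-fold from lowest to highest, followed by PCNA at 5.78-fold, UHRF1 at 5.75-fold and CDT1 at 5.74-fold. The narrowest were those of NUSAP1 at 1.18-fold and BUB1 at 1.37-fold. Within roles, mean levels ran from 18.5 FPKM (AURKB) to 48.1 (CCNB1) among mitotic kinases and cyclins, from 6.20 (CENPE) to 46.5 (CDC20) among checkpoint and kinetochore genes, and from 13.8 (KIF20A) to 46.3 (TPX2) among spindle and cytokinesis genes. They ran from 38.9 (MCM6) to 85.9 (MCM7) in the helicase, from 8.04 (ORC1) to 23.0 (GINS2) in origin licensing, from 29.5 (RRM2) to 99.7 (PCNA) in DNA synthesis, and from 12.4 (E2F1) to 45.6 (MYBL2) among the regulators.

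The median level of the replication genes varied more between libraries than that of the mitotic genes. In the low group the median of the 16 replication genes was 46.5 FPKM (scrambled), 36.8 FPKM (A2780-shCOL11A1) and 41.5 FPKM (OVCAR3-GFP), and in the high group 28.5 FPKM (A2780CIS), 50.3 FPKM (A2780-COL11A1) and 22.2 FPKM (OVCAR3-COL11A1). The median of the 21 mitotic genes lay between 19.0 and 24.5 FPKM in all 6. On the log2(FPKM + 1) scale the replication median exceeded the mitotic median by 1.05 (scrambled), 0.92 (A2780-shCOL11A1), 0.21 (A2780CIS), 1.34 (A2780-COL11A1) and 0.82 (OVCAR3-GFP), and lay 0.14 below it in OVCAR3-COL11A1 (a difference of -0.14). The gap was therefore smallest in A2780CIS and OVCAR3-COL11A1 and widest in A2780-COL11A1, all of them in the COL11A1-high group. In bulk RNA a smaller share of cells in S phase and less of these transcripts per cell cannot be told apart.

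The set holds 2 marks of proliferation. MKI67, the Ki-67 antigen gene (chr10:129894924-129924468), stood at 12.04 FPKM (scrambled), 16.2 FPKM (A2780-shCOL11A1), 14.7 FPKM (A2780CIS) and 10.6 FPKM (A2780-COL11A1) in the A2780 libraries and at 15.8 FPKM (GFP) and 17.0 FPKM (COL11A1) in those of OVCAR3. TOP2A, the topoisomerase that untangles sister chromatids (chr17:38544772-38574202), stood at 42.0, 41.7, 50.7 and 34.1 FPKM in those 4 A2780 libraries and at 23.0 and 26.5 in OVCAR3. For both genes A2780-COL11A1 was the lowest of the A2780 libraries, and for TOP2A both OVCAR3 libraries lay below all 4 of A2780.

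The values of 6 further members are given in 1 order of libraries. In the order scrambled, shCOL11A1, A2780CIS, A2780-COL11A1, OVCAR3-GFP and OVCAR3-COL11A1, CCNB1, cyclin B1, stood at 41.3, 37.0, 51.2, 39.6, 65.0 and 54.7 FPKM. TPX2, the spindle factor that activates AURKA, stood at 50.1, 46.4, 41.3, 40.2, 39.8 and 59.9 FPKM in that order, and KIF20A, a kinesin of cytokinesis, at 13.2, 12.2, 13.8, 9.70, 17.9 and 15.9 FPKM. OVCAR3 was above A2780 in both libraries for CCNB1 and KIF20A, and for TPX2 in OVCAR3-COL11A1 alone. MCM7 stood at 101 FPKM in the scrambled library and 87.2, 71.6, 103, 79.5 and 73.4 FPKM in the others, with A2780CIS the lowest. GINS2 stood at 33.2, 24.3, 17.1, 33.9, 18.1 and 11.2 FPKM and E2F1 at 13.8, 8.38, 10.3, 17.1, 17.3 and 7.76 FPKM, both lowest in OVCAR3-COL11A1.

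Some loci overlap other entries of the table, and the kit kept the strand but the labels do not say whether the counting used it, so reads may be shared. This touches CCNA2 (EXOSC9), PLK1 (ERN2), BUB1B (PAK6), KIF20A (CDC23), PRC1 (LOC100507118), MCM7 (AP4M1 and 3 microRNAs), PCNA (PCNA-AS1), TYMS (ENOSF1 and C18orf56), FOXM1 (RHNO1 and LOC100507424) and UHRF1 (MIR4747), whose values are less certain.

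**Figure D2:**
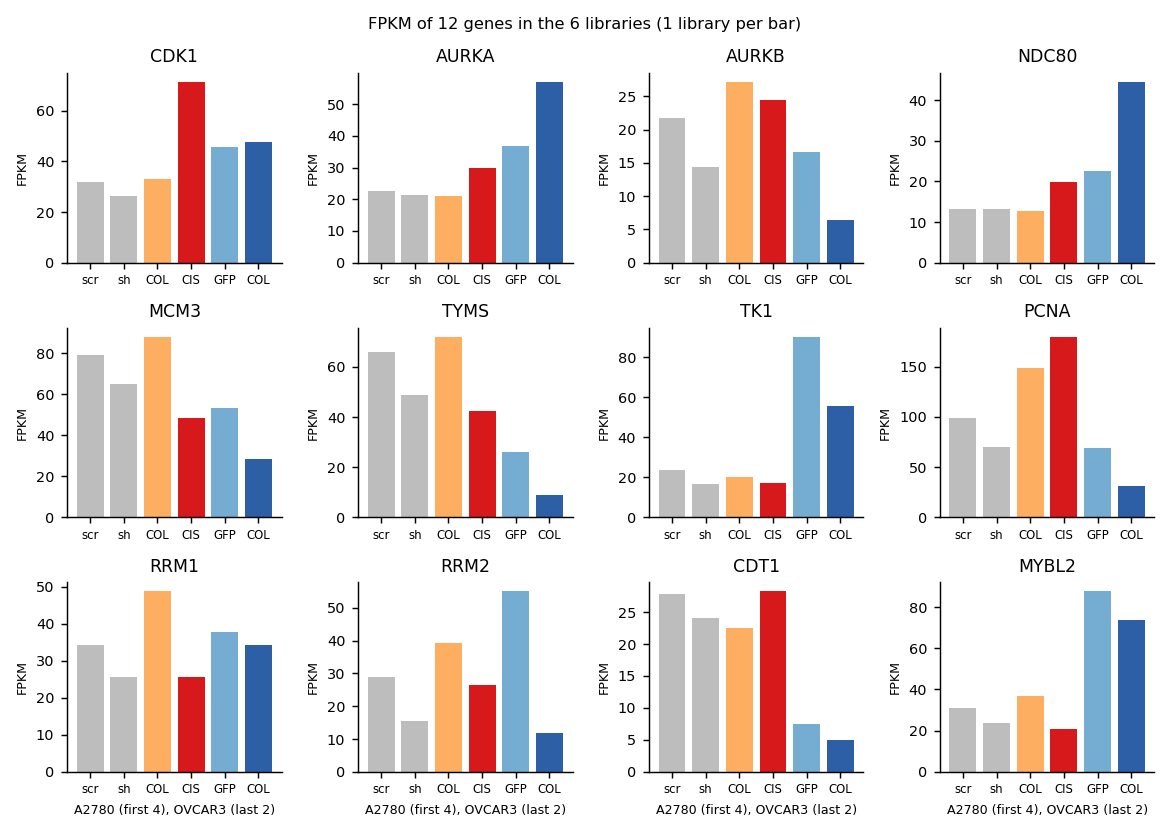
FPKM (linear axis from 0) of 12 genes, 1 bar per library with no error since each culture was sequenced once; scr, sh, COL and CIS are A2780 with scrambled shRNA, A2780-shCOL11A1, A2780-COL11A1 and A2780CIS, and GFP and COL on the right are OVCAR3-GFP and OVCAR3-COL11A1. TK1 and MYBL2 are high in both OVCAR3 libraries, CDT1 is low in both, CDK1 is highest in A2780CIS (71.3 FPKM), and RRM2 and TYMS are lowest in OVCAR3-COL11A1 (11.9 and 8.79 FPKM).

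The comparison of COL11A1-high with COL11A1-low libraries, with cell line as a term, asked which genes follow the COL11A1 group whatever the line. None of the 43 genes was called at a Benjamini-Hochberg threshold of 5% in limma, and neither was any other gene (0% of 12841 tested), with a smallest adjusted p of 0.731. At an unadjusted p under 0.05, 6.48% of all genes and 2 of the 43 differed, CCNA2 in the higher and MCM4 in the lower direction. The median difference in log2(FPKM + 1) was -0.27 for the 16 replication genes, of which 3 were positive, 0.05 for the 21 mitotic genes, of which 13 were positive, and -0.01 for all tested genes.

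CCNA2, cyclin A2, which pairs with CDK2 and CDK1 in S and G2 phase (chr4:122737598-122745088), stood at 23.1 and 19.0 FPKM in the low A2780 libraries (scrambled and shCOL11A1) and at 28.6 and 27.5 in the high ones (A2780CIS and A2780-COL11A1), and at 24.2 in OVCAR3-GFP against 35.4 in OVCAR3-COL11A1. High and low did not overlap within either line, and the difference in log2(FPKM + 1) was 0.45 ± 0.17 (SE, limma, adjusted p = 0.731). CDK1 also did not overlap, with 71.3 and 32.9 FPKM in the high A2780 libraries, 31.7 and 26.2 FPKM in the low ones, and 47.8 against 45.8 FPKM in OVCAR3. These 2 genes were the members higher without overlap, where 10.1% of all tested genes were. CENPF, a kinetochore protein, was the 1 member lower without overlap, where 12.3% of all tested genes were, with 14.3 and 16.1 FPKM in the high A2780 libraries, 22.5 and 27.6 FPKM in the low ones, and 12.5 against 13.5 FPKM in OVCAR3 (-0.49 ± 0.21). Both counts are below the share of all genes.

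MCM4, a subunit of the helicase, stood at 58.3 and 51.6 FPKM in the low A2780 libraries, at 32.1 in A2780CIS and 51.7 in A2780-COL11A1, and at 45.1 in OVCAR3-GFP against 20.6 in OVCAR3-COL11A1 (-0.64 ± 0.26). A2780-COL11A1 lay level with A2780-shCOL11A1, so the low values came from A2780CIS and OVCAR3-COL11A1. FEN1, the nuclease that trims Okazaki fragments, had the same shape, with 19.0 FPKM (A2780CIS) and 42.4 FPKM (A2780-COL11A1) beside 49.8 and 38.6 FPKM in the low A2780 libraries, and 34.8 against 55.6 FPKM in OVCAR3 (-0.62 ± 0.32). CCNB2, cyclin B2, stood at 27.5 and 22.5 FPKM in the low A2780 libraries and 37.5 and 39.0 in the high ones, and at 32.2 in OVCAR3-GFP against 29.9 in OVCAR3-COL11A1, so the high libraries lay above the low ones in A2780 and below in OVCAR3. The other members taken by the smallest unadjusted p were UHRF1 (-0.33 ± 0.22), NDC80 (0.49 ± 0.26), CCNB2 (0.37 ± 0.21) and CENPA (0.53 ± 0.32), all with an adjusted p of 0.731 in limma.

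Among the other genes of the pathways, none was called either. At an unadjusted p under 0.05 (limma) lay 6.48% of all 12841 tested genes, 309 higher and 523 lower. In that range 4 of 60 further mitotic genes were lower and none was higher. The 4 were KIFC1 (-0.62 ± 0.18), CCNF (-0.63 ± 0.19), TACC3 (-0.47 ± 0.15) and SPAG5 (-0.55 ± 0.20). Of 56 further replication genes, RRM2B, the ribonucleotide reductase subunit induced by p53, was higher (0.92 ± 0.23), with 29.3 and 25.5 FPKM in the high A2780 libraries against 15.3 and 18.6 FPKM in the low ones, and 46.4 against 16.6 FPKM in OVCAR3. RNASEH2A was lower (-0.49 ± 0.18). FZR1, an activator of the anaphase-promoting complex, was the 1 lower of 14 genes of that complex (-0.65 ± 0.21), with none higher. E2F2 was the 1 higher of 18 genes of the RB, E2F and MuvB group (0.65 ± 0.26), with none lower. RRM2B did not overlap between the groups within either line, and its adjusted p in limma was 0.731. As lists, the 60 further mitotic genes had 35 positive and 25 negative differences, with a median of 0.09. The 56 further replication genes had 28 positive and 28 negative differences, with a median of -0.00051.

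The lines differed far more than the COL11A1 groups. Between OVCAR3 and A2780, with the COL11A1 group as a term, 45.2% of all tested genes were called in limma, 19.6% higher and 25.6% lower in OVCAR3, and 5 of the 43 genes rose and 7 fell in OVCAR3 relative to A2780. Called higher in OVCAR3 were TK1, MYBL2, AURKA, NDC80 and CDC20, and called lower were CDT1, UHRF1, TYMS, PRC1, MCM5, MCM6 and TOP2A. The share of members called was below that of all genes. Leaving out 1 library moved these counts: 2 members were called higher without the scrambled, the shCOL11A1 or the OVCAR3-GFP library, 1 without OVCAR3-COL11A1 and 11 without A2780CIS. Called lower were 3 without either shRNA library and 2 without OVCAR3-COL11A1. The median of all tested genes was itself -0.15 in log2(FPKM + 1) and moved to 0.02 when the library medians were set equal, so differences here are to be read against that shift.

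Thymidine metabolism was split between its routes. TK1, thymidine kinase 1, which salvages thymidine (chr17:76170159-76183285), stood at 23.7, 16.6, 17.4 and 19.9 FPKM in the A2780 libraries (scrambled, shCOL11A1, A2780CIS, A2780-COL11A1) and at 90.2 and 55.5 in OVCAR3-GFP and OVCAR3-COL11A1, 1.83 ± 0.24 higher (SE, limma, adjusted p = 0.00274). TYMS, thymidylate synthase, which makes thymidylate anew (chr18:657603-673499), stood at 66.0, 48.8, 42.6 and 72.0 FPKM in A2780 and at 25.9 and 8.79 in OVCAR3, a difference of -1.81 ± 0.40 (adjusted p = 0.0148, limma). Without OVCAR3-COL11A1 the TYMS difference was -1.10 (adjusted p = 0.143), and without OVCAR3-GFP it was -2.53 (adjusted p = 0.0293). For neither gene did the lines overlap. The ratio of TK1 to TYMS in FPKM was 0.276 to 0.408 in the A2780 libraries and 3.48 in OVCAR3-GFP and 6.32 in OVCAR3-COL11A1.

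All 6 MCM genes and all 4 origin genes had lower means in OVCAR3, also with median scaling for the MCM genes, and 3 of these 10 passed the test, a share near the 25.6% of all tested genes called lower. CDT1, the MCM loader (chr16:88870185-88875666), stood at 27.9, 24.02, 28.2 and 22.5 FPKM in the A2780 libraries in the same order and at 7.53 and 4.91 in OVCAR3 (-1.90 ± 0.22, adjusted p = 0.00182, limma). MCM5 stood at 64.0, 53.1, 28.8 and 70.3 FPKM in A2780 and at 22.2 and 15.4 in OVCAR3 (-1.42 ± 0.36, adjusted p = 0.0237). MCM6 differed by -0.78 ± 0.22 (adjusted p = 0.0326). The lines did not overlap for CDT1 or MCM5, although A2780CIS came closest to OVCAR3 for MCM5. MCM7 and MCM2, with differences of -0.23 ± 0.21 and -0.30 ± 0.30, did not pass.

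Mitotic members leaned the other way. Of the 21, 14 had positive differences with a median of 0.26, and 18 did with median scaling, but only 3 were called higher and 1 lower. AURKA, the Aurora kinase of the spindle poles (chr20:54944444-54967351), stood at 22.6, 21.5, 30.0 and 21.1 FPKM in the A2780 libraries and at 36.8 and 56.9 in OVCAR3 (0.93 ± 0.22, adjusted p = 0.0190, limma). NDC80, which links the kinetochore to microtubules (chr18:2571509-2616634), stood at 13.2, 13.2, 20.0 and 12.7 FPKM in A2780 and at 22.5 and 44.4 in OVCAR3 (1.08 ± 0.27, adjusted p = 0.0226). CDC20, the activator of the anaphase-promoting complex, stood at 41.4, 40.1, 39.0 and 35.4 FPKM in A2780 and at 58.6 and 64.5 in OVCAR3 (0.65 ± 0.17, adjusted p = 0.0253). For these 3 genes the OVCAR3 libraries lay above all 4 of A2780. PRC1, which bundles the microtubules of the central spindle, was the 1 mitotic member called lower. It stood at 20.9, 18.8, 23.1 and 18.9 FPKM in A2780 against 9.68 and 11.999 in OVCAR3 (-0.86 ± 0.19, adjusted p = 0.0162, limma). AURKB had a larger fall without passing the test (-0.97 ± 0.43). TOP2A, a mark of proliferation, differed by -0.73 ± 0.22 (adjusted p = 0.0377, limma).

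The regulators also split. MYBL2, which encodes B-MYB (chr20:42295708-42345122), stood at 30.8, 23.6, 20.8 and 36.6 FPKM in A2780 and at 87.7 and 73.8 in OVCAR3 (1.52 ± 0.28, adjusted p = 0.00768, limma). UHRF1, which brings the maintenance DNA methyltransferase to replicated DNA (chr19:4909509-4962165), stood at 31.1, 28.4, 25.5 and 30.3 FPKM in A2780 and at 10.2 and 5.41 in OVCAR3 (-1.81 ± 0.24, adjusted p = 0.00256). Neither gene overlapped between the lines, while E2F1 and FOXM1 differed by -0.03 ± 0.41 and 0.17 ± 0.22. Of the 10 members with the smallest adjusted p, CDT1, UHRF1 and TK1 kept their call under all 14 alternatives, and each of the other 7 lost it under 2 to 5 of them.

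**Figure D3:**
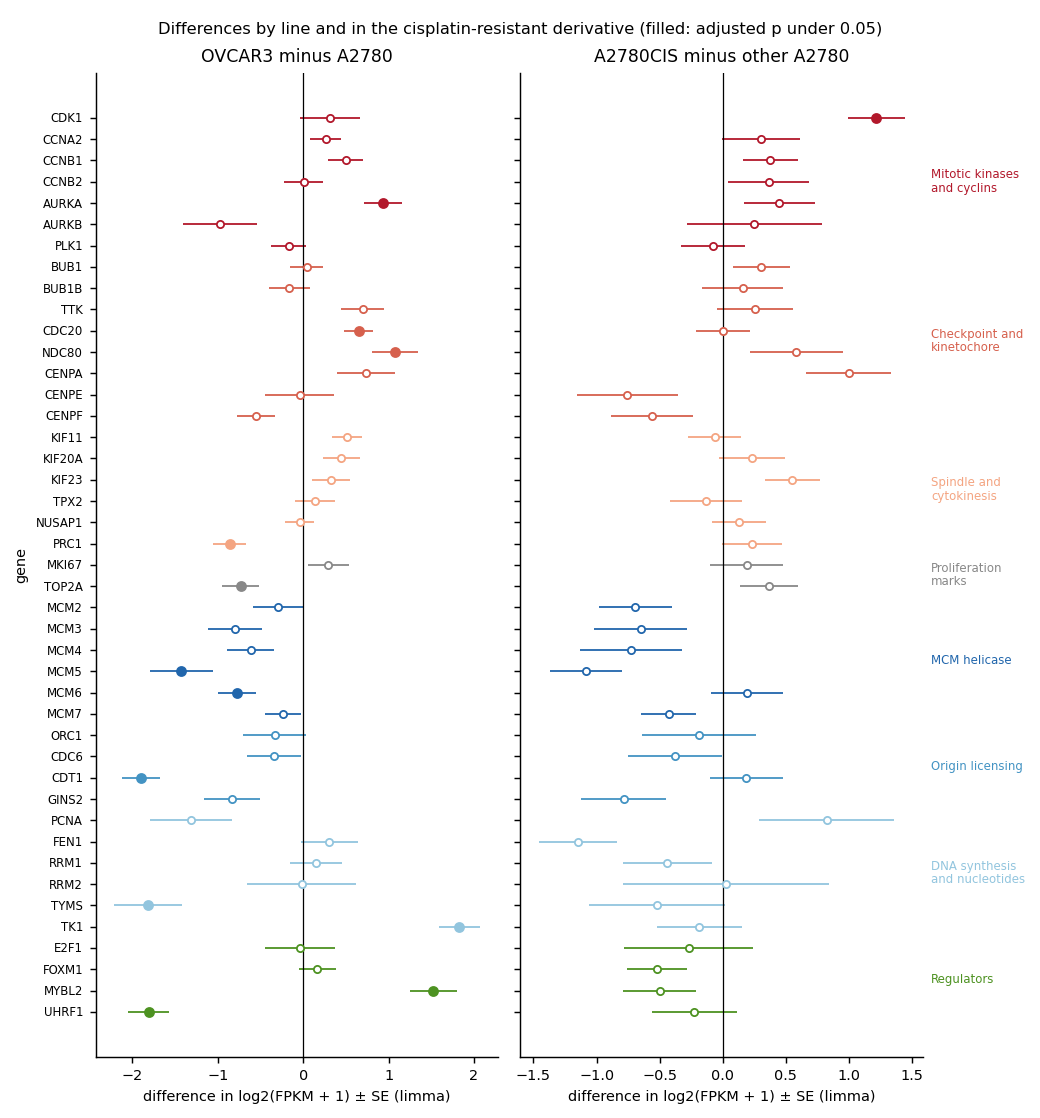
Difference in log2(FPKM + 1) with its standard error (limma) for each of the 43 genes, coloured and grouped by role; left, OVCAR3 minus A2780, and right, A2780CIS minus the other 3 A2780 libraries. Filled points have an adjusted p under 0.05, which are 12 genes on the left and CDK1 alone on the right, and all MCM and origin genes lie left of 0 in the left panel.

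Wider lists of the same pathways had calls in both directions between the lines, to be read beside the 19.6% of all tested genes called higher and the 25.6% called lower. Of 56 further replication genes 4 were called higher and 15 lower in OVCAR3, among them POLD2, a subunit of DNA polymerase delta (-1.86 ± 0.17), RNASEH2A (-1.74 ± 0.19), DTL, a substrate receptor for CDT1 destruction (-1.79 ± 0.22), and ORC2 (-1.88 ± 0.28). Of 60 further mitotic genes 10 were higher and 7 lower, with PTTG1, or securin, at 33.9 to 54.3 FPKM in A2780 against 162 and 185 in OVCAR3 (2.02 ± 0.20), and CENPM at 19.5 to 26.9 against 6.58 and 3.94 (-1.96 ± 0.20). Of 20 cohesin and condensin genes 6 were higher, NCAPG and SMC4 among them, and 1 lower (NCAPD3). Of 14 genes of the anaphase-promoting complex 1 was higher and 5 lower, and of 18 genes of the RB, E2F and MuvB group 5 were higher and 3 lower.

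Of 8 inhibitors of cyclin-dependent kinases 4 were called higher and 1 lower in OVCAR3, where 19.6% and 25.6% of all tested genes were. CDKN2A, which encodes p16INK4a and ARF, stood at 13.1, 17.3, 12.1 and 10.8 FPKM in the A2780 libraries against 110 and 136 in OVCAR3 (3.12 ± 0.24, adjusted p = 0.000540, limma). CDKN1A, which encodes p21 and is a target of p53, stood at 62.0, 69.0, 43.2 and 91.8 FPKM against 9.51 and 5.997 (-2.93 ± 0.34, adjusted p = 0.00171). CDKN2B, which encodes p15, stood at no more than 0.439 FPKM in any A2780 library and at 7.41 and 13.7 in OVCAR3. The lines did not overlap for any of these 3 genes.

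A2780CIS was set against the other 3 A2780 libraries to see which genes stand apart in the cisplatin-resistant line, with 1 library on one side that is assumed to vary like the rest. Of all tested genes 11.1% were called in limma, 5.69% higher and 5.43% lower, and of the 43 members CDK1 alone rose and none fell. CDK1, the kinase that drives entry into mitosis (chr10:62538088-62554610), stood at 71.3 FPKM in A2780CIS against 31.7, 26.2 and 32.9 in the scrambled, shCOL11A1 and COL11A1 libraries (1.22 ± 0.23, SE, adjusted p = 0.0190). It lay above all other libraries, OVCAR3 included. The call was lost without the scrambled library (adjusted p = 0.0896) and without A2780-shCOL11A1 (adjusted p = 0.0760).

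Other mitotic members were above the remaining A2780 libraries without passing the test. CENPA, the centromeric histone, stood at 16.1 FPKM against 9.25, 6.15 and 7.58 (1.00 ± 0.34, adjusted p = 0.117, limma), KIF23 at 26.0 against 16.5, 16.7 and 19.3 (0.55 ± 0.22) and NDC80 at 20.0 against 13.2, 13.2 and 12.7 (0.58 ± 0.37). Of the 21 mitotic members 16 had positive differences, with a median of 0.25. CENPE and CENPF were among the 5 that did not, CENPE at 3.74 FPKM against 6.94, 8.01 and 6.14.

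Replication members lay on the other side, again short of the threshold. MCM5 stood at 28.8 FPKM in A2780CIS against 64.0, 53.1 and 70.3 (-1.08 ± 0.29, adjusted p = 0.0603, limma), and FEN1 at 19.0 against 49.8, 38.6 and 42.4 (-1.15 ± 0.31, adjusted p = 0.0647). MCM2 at 42.4 against 72.2, 57.4 and 80.3 and GINS2, part of the helicase at the fork, at 17.1 against 33.2, 24.3 and 33.9 had differences of -0.69 ± 0.29 and -0.79 ± 0.34. For these 4 genes A2780CIS was below each of the other 3. Of the 16 replication members 12 had negative differences, with a median of -0.44 beside -0.05 for all tested genes. PCNA stood apart from them at 180 FPKM against 98.7, 70.2 and 149 (0.82 ± 0.53), and MCM6 at 49.5 FPKM lay within the range of the other 3, 35.02 to 53.8. With either OVCAR3 library left out, 3 members, MCM5 and FEN1 among them, were called lower.

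Of all tested genes 5.69% were called higher and 5.43% lower, and the 3 mitotic and 3 replication calls in the wider lists were near those shares. CDC25B, the phosphatase that activates CDK1, was called higher at 41.5 FPKM in A2780CIS against 16.2, 13.9 and 12.1 (1.504 ± 0.24, adjusted p = 0.0119, limma). HMMR (1.38 ± 0.31) and SKA1 (1.14 ± 0.27) were the other 2 of the 60 further mitotic genes called, all 3 higher. Of the 56 further replication genes 3 were called, all lower: RFC3, a subunit of the clamp loader, at 11.96 FPKM against 29.8, 27.2 and 28.9 (-1.19 ± 0.22), POLD1, the catalytic subunit of polymerase delta (-1.06 ± 0.24), and TIMELESS, a fork protection factor (-1.37 ± 0.33). The cohesin factor PDS5B, the anaphase-promoting complex subunit CDC16 and the kinase inhibitor CDKN2C were also called lower. As a list the 56 further replication genes were not shifted, with 29 positive and 27 negative differences and a median of 0.01. The 60 further mitotic genes had 35 positive and 25 negative differences, with a median of 0.24. The summed fibroblast markers stood at 553 FPKM in A2780CIS, nearly all COL3A1, against 129 to 220 in the other A2780 libraries. COL3A1 stood at 548 FPKM against 75.7 to 147, and DCN was also higher. The other fibroblast markers were lower in A2780CIS than in any other A2780 library, PDGFRA at 1.42 FPKM against 44.1 to 66.1. The summed epithelial markers stood at 46.8 FPKM, mainly KRT18, against 7.76 to 14.1, while FOLR1 was lower. Neither set of markers rose as a list. The part of these markers in the differences above was not tested.

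The interaction of group and line asked whether the COL11A1 difference itself varied between the lines, with 1 high and 1 low library in OVCAR3. The fit matches those OVCAR3 libraries exactly, so the errors come from the spread within the A2780 groups. The OVCAR3 difference has no error of its own. No member and no other gene was called in limma (0% of 12841 tested, smallest adjusted p 0.0839), while 13.6% of all genes and 5 of the 43 had an unadjusted p under 0.05. PCNA was lower in OVCAR3-COL11A1 than in OVCAR3-GFP, at 31.2 against 69.3 FPKM, and higher in both high A2780 libraries, at 180 and 149 against 98.7 and 70.2, an interaction of -2.10 ± 0.41 on the log2 scale (adjusted p = 0.306, limma). RRM2, the small subunit of ribonucleotide reductase, had -2.70 ± 0.70, AURKB -1.76 ± 0.45, TPX2 0.81 ± 0.21 and CENPE 1.48 ± 0.49, with adjusted p from 0.326 to 0.362. Without A2780-COL11A1, CENPE was the 1 member called (adjusted p = 0.0437), beside 2821 genes in all, and without A2780CIS 14 genes and no member were called. Of the 16 replication members 15 had a negative interaction, with a median of -0.61. The median of all tested genes was 0.11 and moved to -0.09 with median scaling. The 56 further replication genes had 27 positive and 29 negative interactions, with a median of -0.04.

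A2780CIS and each construct were also set beside a control of its own line, 1 library against 1. These differences carry no test, and called means at least 1.5-fold on the log2(FPKM + 1) scale. The 3 A2780 pairs share the scrambled library as their control, which makes their values alike, so each is given on its own.

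OVCAR3-COL11A1 against OVCAR3-GFP was split by role. All 16 replication members were lower in OVCAR3-COL11A1, 9 of them at least 1.5-fold, with a median difference of -0.66, also under median scaling and quantile normalization. The 21 mitotic members had a median of 0.14, with 14 higher, 11 with either other scaling, and 5 at least 1.5-fold higher. Of all members 5 were called higher and 12 lower, where 18.7% of all tested genes were higher and 13.6% lower. The median of all tested genes was 0.05.

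The members with the lowest ratios included RRM2 and TYMS, enzymes of deoxynucleotide supply. RRM2 (chr2:10262694-10271546) stood at 11.9 FPKM in OVCAR3-COL11A1 against 55.0 in OVCAR3-GFP, a difference of -2.11 in log2(FPKM + 1), while its partner RRM1, the large subunit, was at 34.3 against 37.9 (-0.14). The ratio of RRM2 to RRM1 in FPKM was thus 0.348 against 1.45, beside 0.606 to 1.04 in the A2780 libraries. TYMS was at 8.79 against 25.9 FPKM (-1.46), PCNA at 31.2 against 69.3 (-1.13) and MCM4 at 20.6 against 45.1 (-1.09). E2F1, the activator of many of these genes, was at 7.76 against 17.3 FPKM (-1.06), and ORC1 at 4.32 against 9.52 (-0.98). MCM7 at 73.4 against 79.5 FPKM (-0.11) was the replication member that differed least, and within the helicase the FPKM ratio of the highest to the lowest subunit was 4.77 against 3.58 in OVCAR3-GFP.

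Among the members, the highest ratios were those of kinetochore and checkpoint genes. NDC80 was at 44.4 FPKM in OVCAR3-COL11A1 against 22.5 (0.95), CENPE at 8.44 against 3.92 (0.94) and BUB1B, a kinase of the spindle checkpoint, at 21.6 against 12.7 (0.72). AURKA was at 56.9 against 36.8 FPKM (0.61) and CENPA at 19.9 against 12.8 (0.60). The Aurora kinases lay on different sides, since AURKB, the kinase of the chromosomal passenger complex (chr17:8108048-8113944), was at 6.41 against 16.6 FPKM (-1.25), the lowest of the 6 libraries. The ratio of AURKA to AURKB in FPKM was 8.87 in OVCAR3-COL11A1, 2.22 in OVCAR3-GFP and 0.778 to 1.49 in A2780. CDK1 at 47.8 against 45.8 FPKM and CCNB1 at 54.7 against 65.0 differed little.

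The further replication genes did not share that direction as a list, since 32 of 56 were lower with a median of -0.04, and 10 were at least 1.5-fold lower and 5 higher. The 60 further mitotic genes had a median of 0.07, with 11 at least 1.5-fold higher and 10 lower. Kinetochore and checkpoint genes of that list lay on both sides. SPC24 (-1.297), CENPI (-0.62), CENPM (-0.62), BUB3 (-0.37) and SPC25 (-0.36) were lower in OVCAR3-COL11A1. CENPK (0.68), SKA3 (0.68), CASC5 (0.38), NUF2 (0.33) and MAD1L1 (0.298) were higher. The estimated depth of OVCAR3-COL11A1 was 0.501 against 1.14 for OVCAR3-GFP, and the 8 epithelial markers summed to 1121 FPKM against 2362, the 8 fibroblast markers to 10.5 against 4.48. Their part in these differences was not tested.

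**Figure D4:**
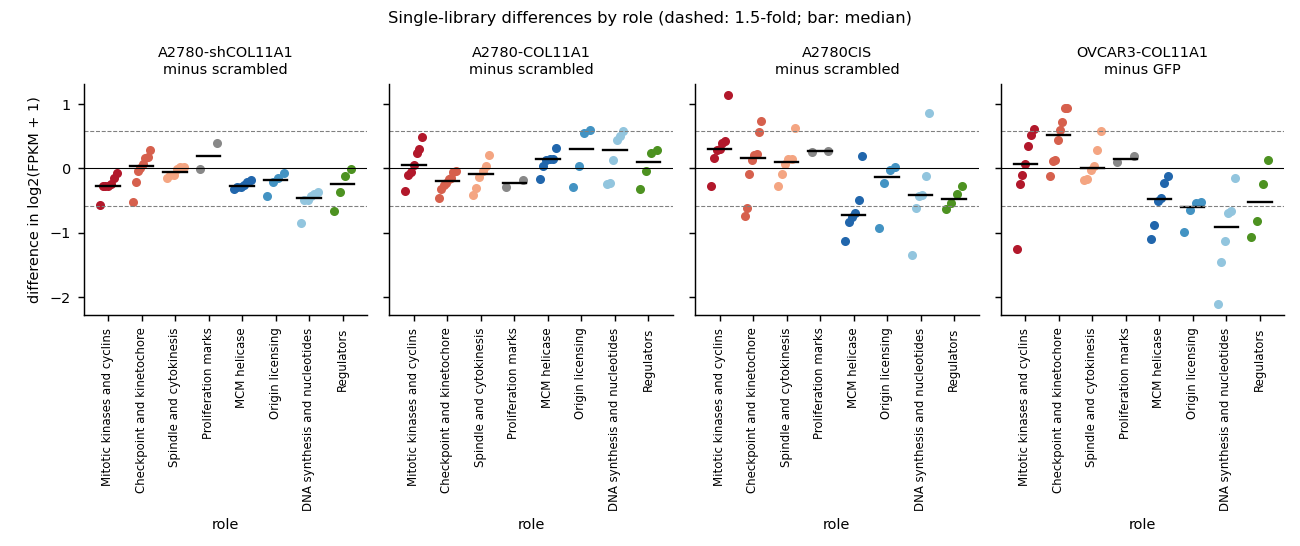
Difference in log2(FPKM + 1) between single libraries for the 43 genes by role, 1 point per gene, with the median as a bar and dashed lines at 1.5-fold; the panels show A2780-shCOL11A1, A2780-COL11A1 and A2780CIS against the scrambled A2780 library and OVCAR3-COL11A1 against OVCAR3-GFP. All replication points lie below 0 in the first and last panels, with medians of the 16 genes of -0.31 and -0.66.

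A2780CIS against the scrambled library had 13 of 16 replication members lower, with a median of -0.46 and 7 at least 1.5-fold lower, and 15 of 21 mitotic members higher, with a median of 0.16. With A2780-shCOL11A1 as the control in place of the scrambled library, the replication median was -0.14, with 3 members at least 1.5-fold lower and 2 higher. The mitotic median was then 0.28. Against the scrambled library, the 56 further replication genes had 23 higher and 33 lower, with a median of -0.07. Of all members 4 were at least 1.5-fold higher and 10 lower, where 16.7% and 22% of all tested genes were. FEN1 (-1.34), MCM5 (-1.13), GINS2 (-0.92) and MCM4 (-0.84) were the lowest, and CDK1 (1.14), PCNA (0.86), CENPA (0.74) and KIF23 (0.63) the highest. All 4 regulators were lower, from UHRF1 (-0.28) to FOXM1 (-0.63), the mitotic activator, which was at 20.0 against 31.6 FPKM.

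In A2780-COL11A1 against the scrambled library, 2 members were at least 1.5-fold higher and 0 lower, where 4.45% and 8.91% of all tested genes were. CDC6, which loads MCM with CDT1 (chr17:38444145-38459413), was at 30.0 against 19.4 FPKM (0.60), and PCNA at 149 against 98.7 (0.59). ORC1 followed at 11.9 against 7.73 FPKM (0.56) and RRM1 at 48.8 against 34.2 (0.50). Of the replication members 12 of 16 were higher, with a median of 0.14, and the library was the highest of the 6 for 10 of them. With A2780-shCOL11A1 as the control, that median was 0.47 and 6 of the 16 were at least 1.5-fold higher. Against the scrambled library, the 56 further replication genes had 27 higher and 29 lower, with a median of -0.02. Of the mitotic members 6 of 21 were higher with a median of -0.09, which turned to 11 of 21 and 0.02 with median scaling. CENPF (-0.46), KIF20A (-0.41), PLK1 (-0.34) and TTK (-0.33) were the lowest.

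A2780-shCOL11A1 against the scrambled library was the pair with the fewest genes past 1.5-fold, 0.74% higher and 1.37% lower, and none of the members was higher and 2 were lower. RRM2 was at 15.5 against 28.8 FPKM (-0.85) and E2F1 at 8.38 against 13.8 (-0.66). AURKB was at 14.4 against 21.8 FPKM (-0.57) and CENPA at 6.15 against 9.25 (-0.52). All 16 replication members were lower, also with both other scalings, with a median of -0.31 where the median of all tested genes was 0. The largest positive values were those of MKI67 (0.40), CENPF (0.29), CENPE (0.18) and TTK (0.17). Of the 7 mitotic kinases and cyclins all were lower, and of the 8 checkpoint and kinetochore genes 5 were higher. The 56 further replication genes had 18 higher and 38 lower, with a median of -0.07.

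Single differences of this kind could not be set against the spread between cultures of 1 kind, since each has 1 library.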

How the data were processed

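Poly-A RNA of 6 cell cultures was made into libraries with a stranded Illumina kit and sequenced as single-end reads of 75 bases, per the labels' protocols. The authors deposited 1 FPKM value per gene and library, per the file headers. The unit was recorded as other, since 1.09% of the deposited cells hold a word instead of a number. The submitters' processing notes name STAR 2.5.0, RSEM 1.2.25 and GRCh38 without a role, while the deposited loci are those of GRCh37 in the layout of a Cufflinks table, so which program computed the FPKM stays unsettled. A filter is named in the title of the table without further description.

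Of 25275 entries, those off the main chromosomes (1304), with a word in all (274) or some (2) libraries, named as dates (28) or under names with several loci (306 names) were left out, which left 23145 genes. Values were used as log2(FPKM + 1), which understates the differences of low genes. The test was that of limma 3.58.1 (R 4.3.3), run on the 12841 genes whose mean reached 1 FPKM (two-sided, moderated variances with an intensity trend, Benjamini-Hochberg threshold of 5% over all tested genes). The fits were the COL11A1 group with cell line as a term, the line in the same fit, their interaction, and A2780CIS against the other A2780 libraries; they were tested on simulated data. Single pairs were given as ratios with no test. Absolute read counts were not used here, relative depth was estimated from steps between low values, and no interval could be derived.

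The members and all lists were chosen with earlier results of these data known. Library values, for some genes only in the libraries compared, were given for members past the threshold, at most 10 per comparison, otherwise for the 4 with the smallest unadjusted p per direction, for the 4 highest and 4 lowest ratios of each pair, and for the highest and lowest member of each role; up to 4 genes per other list were named by the smallest p. Some further values beside these were chosen after they were seen. Promoter sequences came from RefSeq (GRCh38.p14), matched by symbol. Alternatives were other pseudocounts, filters and scalings, no variance trend, other terms, another control and each library left out. The COL11A1 groups were also compared in the overexpression libraries and their controls alone.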

Additional observations from a re-analysis of the deposited data

Results flagged for a closer look

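Over the 4 A2780 libraries, 44 genes (the 43 members and COL11A1) were examined for a library that stands far from the rest, and 2 were found. NDC80 was at 20.0 FPKM in A2780CIS against 12.7 to 13.2 in the other 3, a gap of 0.912 of the whole range on the log2(FPKM + 1) scale, above the critical value of Dixon's test for 4 samples. ORC1 was at 11.9 FPKM in A2780-COL11A1 against 7.27 to 7.73 in the others, a gap of 0.878 of the range on the same scale. Chance flags about 1 in 20 groups, and 2 of 44 is near that share.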

How the results depend on the processing

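No result past a threshold changed direction under the alternatives tried. The comparison of the COL11A1 groups called 0 genes under each of them. Between the lines, 3 members instead of 7 were called lower with no filter on low values. With each library left out in turn, all genes called ranged from 2858 to 7430 (main 5810), members called higher from 1 to 11 (main 5) and members called lower from 2 to 10 (main 7). For A2780CIS, 855 genes were called with a mean of at least 5 FPKM (main 1428), and leaving out each library gave 723 to 2016 genes, 0 to 1 member higher (main 1) and 0 to 3 members lower (main 0). The interaction called 1495 genes with no filter, and 0 to 2821 genes with 0 to 1 member higher when an A2780 library was left out. It could not be fitted without an OVCAR3 library, and the A2780CIS comparison has no value without A2780CIS. Leaving out a library raised some of these counts and lowered others. The smaller sets of libraries also leave fewer residual degrees of freedom, and no cause of either change was tested.

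Among the pairs at 1.5-fold, a pseudocount of 5 gave 2 members higher and 6 lower in A2780CIS (main 4 and 10), 0 higher in A2780-COL11A1 (main 2), 1 lower in A2780-shCOL11A1 (main 2) and 2 higher in OVCAR3-COL11A1 (main 5). Median scaling gave 5 higher in A2780-COL11A1 and 3 higher in OVCAR3-COL11A1, and quantile normalization 2 higher in the latter. With A2780-shCOL11A1 as the control, 7 members were higher and 6 lower in A2780CIS, and 10 higher and 1 lower in A2780-COL11A1. The cause was not tested. The labels carry no replicate numbers, and cell line was a term of the fits. With the COL11A1 overexpression libraries and their controls alone, the group difference was 0.17 for CENPA (main 0.53) and 0.19 for CCNB2 (main 0.37). It was -0.63 for MCM4 (main -0.64) and -0.42 for UHRF1 (main -0.33). Depth is known only as a ratio between libraries, and 1 library per construct gives no error for single values.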
